A study of Mus musculus with 10 samples.

Results

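The genes described here are 41 mouse genes of amyloid processing and Alzheimer risk, out of 26089 RefSeq genes with a curated transcript on chromosomes 1 to 19 and X. They were listed by name, and for each gene the REST peaks that overlap the gene body or lie within 5 kb of a transcription start site were taken. REST-bound chromatin was immunoprecipitated from cortices of female mice aged 11 months and sequenced (ChIP-seq). WT mice were set beside 3xTg mice, which model Alzheimer's disease and carry human APP and tau transgenes with disease mutations and a further mutation placed in an endogenous gene. The controls were littermates as the study describes them, and its methods give a hybrid strain background for WT and 3xTg lines alike. Each genotype had 4 replicates, each pooled from 4 frozen cortices, and 1 input library. The authors combined the 4 replicates of a genotype in 1 peak list, and these pooled lists were used here, so no value below has a replicate spread and no difference between the genotypes was tested. The separate replicate libraries were not analysed here. Cortex was used whole, so binding in fewer cells of a type and less binding per cell cannot be told apart.

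Amyloid peptide is cut from the amyloid precursor protein, first by β-secretase and then inside the membrane by γ-secretase, a complex of several subunits. Cleavage by α-secretases within the peptide sequence prevents its release. The peptide is removed by proteases, lipoprotein receptors and microglia, and many genes linked to disease risk act in endocytosis, lipid transport or microglial signalling. REST is a repressor that binds the RE1 element and is best known for keeping neuronal genes silent outside neurons.

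A WT peak was found at 9 of the 41 genes (22.0%), against 9.30% of all RefSeq genes. A 3xTg peak was found at 10 (24.4%), against 14.2% of all genes. In 8 genes both lists had a peak, against 7.78% of all genes. The 8 were Aplp2, Adam17, Psenen, Ide, Picalm, Mef2c, Slc24a4 and Zcwpw1. App and Sorl1 had 3xTg peaks alone, 2 of 41 (4.88%) against 6.42% of all genes, and Cd2ap had a WT peak alone, 1 of 41 (2.44%) against 1.52%. Among protein-coding genes alone the shares were 10.3% for WT and 15.7% for 3xTg. The other 30 genes had no peak in either list.

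These counts were near or below the background when weaker peaks were left out. With a fold enrichment over 10, 4 of the 41 genes (9.76%) had a 3xTg peak, against 9.41% of all genes, and 0 had a WT peak, against 1.91%. With the 3xTg list reduced to its 3006 best-scoring peaks, as many as in WT, 3 genes (7.32%) had a 3xTg peak, against 9.09% of all genes. With the WT list held to the lowest fold enrichment of the 3xTg list, a setting chosen after the data were seen, 1 gene (2.44%) had a WT peak, against 3.01%. With all peaks kept but start sites within 5 kb alone counted, 4 genes (9.76%) had a 3xTg peak, against 9.87%, and 5 (12.2%) a WT peak, against 6.72%. With all peaks kept but the gene body alone counted, the share stayed above the background. There 9 genes (22%) had a 3xTg peak, against 12.5%, and 5 (12.2%) a WT peak, against 7.82%.

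The lists differ in size and in how deep they reach, which bears on every comparison of the genotypes here. After peaks on chromosome Y were left out, the WT list held 3006 peaks and the 3xTg list 5077. Each peak has a fold enrichment, the signal at its summit over the local background as the authors' peak caller gave it. The lowest fold enrichment was 6.0 in the WT list and 8.50 in the 3xTg list, and the medians were 7.28 and 10.8. The lowest −log10 q was 13.3 in WT and 29.0 in 3xTg. These floors lie well inside the filter that the methods state (fold enrichment over 5 and q under 0.01), and whether a further selection was applied is not given in the sources used here. More mapped reads were listed in sum for the libraries of the transgenic mice, and the part of depth in the counts was not tested. A region with the same fold enrichment could therefore be listed in WT and not in 3xTg, and a region absent from the WT list is not shown to be unbound.

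At the 41 genes lay 9 WT peaks and 17 3xTg peaks. A peak was called shared when it overlapped a peak of the other list by at least 1 base. Of the 17 3xTg peaks 8 were shared, against 49.0% of all 3xTg peaks, and 9 were in the 3xTg list alone. Of the 9 WT peaks 8 were shared, against 83.3% of all WT peaks. Both divisions were near those of the whole lists.

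Most of these peaks were weak for their list. The median fold enrichment of the 17 3xTg peaks was 9.15, with a range of 8.80 to 19.9, below the list's median of 10.8. The 9 WT peaks had a median of 6.62 and a range of 6.05 to 8.70, below the list's median of 7.28. Of the 3xTg peaks 4 of 17 (23.5%) had a fold enrichment over 10, where 63.3% of the whole list did. No WT peak at these genes passed 10, where 19.9% of the WT list did. The shared peaks of Ide, Mef2c and Slc24a4 were the only shared ones above the median of their list, and they were so in both lists.

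**Figure D1:**
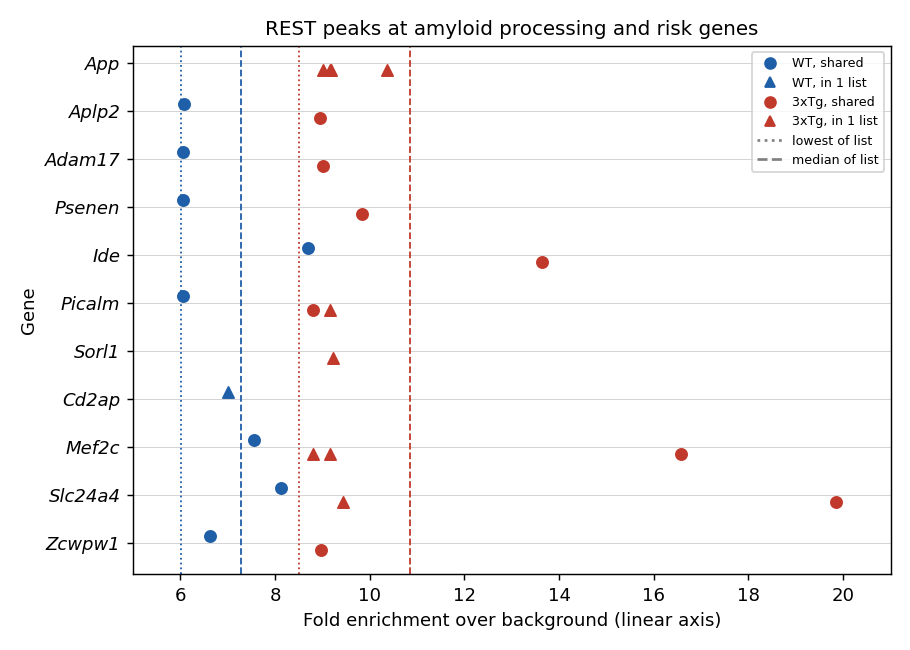
Fold enrichment (linear axis) of each REST peak at the 11 genes with a peak, in WT (blue) and 3xTg (red). Circles are peaks shared by the lists and triangles are peaks of 1 list, and dotted and dashed lines mark the lowest and median value of each list. Most points lie left of their list's median, and the shared peaks of Ide, Mef2c and Slc24a4 lie right of it in both lists, at 13.6, 16.6 and 19.9 in 3xTg.

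Among the 4 genes of the precursor proteins and their adaptor, App and Aplp2 had peaks, where 15.7% of all genes had a peak of either list. App encodes the amyloid precursor protein and spans 219272 bases on the minus strand of chromosome 16 (chr16:84954436-85173707, mm10). It had 4 peaks in the 3xTg list, each without a WT counterpart. The first, at chr16:85037751-85038683, had a fold enrichment of 10.4 and ranked 2844 of 5077, with its summit in intron 8 of 17. The next, at chr16:85143151-85143750 in intron 1, had 9.17 and ranked 4076. The peak at chr16:85001889-85002860 in intron 13 had 9.15 and ranked 4103, and that at chr16:85061334-85062130 in intron 5 had 9.01 and ranked 4304. All 4 peaks were therefore in the lower part of the 3xTg list. Ordered by the authors' score, which follows −log10 q, none was among the first 3006, while by fold enrichment the intron 8 peak was. They were spread over 141272 bases from the first to the last summit, and the nearest to the App start site had its summit 30215 bases inside the gene. None of the 4 covered a base of an App exon. The 3xTg mice carry human APP as a transgene, and its part in these peaks was not tested.

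Several 3xTg peaks in a gene without a WT peak were uncommon. At least 1 3xTg-only peak and no WT peak was found at 1654 genes (6.34%), and at 388 of the 2430 genes longer than 100 kb (16.0%). At least 2 such peaks were found at 134 genes and at least 3 at 26. Of the genes longer than 100 kb, 2.96% had at least 2 and 0.123% at least 4. At least 4 such peaks, the count at App itself, were found at 5 genes of 26089. These were App, Lonp2, Phactr1, Zbtb20 and n-R5s108, the others being named here after their values were seen. Phactr1, 457728 bases long, and Zbtb20, 711484 bases long, are longer than App, Lonp2 spans 92594 bases and the ribosomal RNA gene n-R5s108 spans 121 bases. The highest fold enrichment among their peaks was 14.0 at Phactr1, 10.7 at Zbtb20, 10.2 at Lonp2 and 10.1 at n-R5s108. For App this count rests on the whole 3xTg list, since no App peak is left when the list is reduced to the size of the WT list by score, and only the intron 8 peak has a fold enrichment over 10.

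Aplp2, a homologue of App cut by the same secretases, had a shared peak in intron 3 of 17. The WT peak at chr9:31176140-31176786 had a fold enrichment of 6.08 and ranked 2776 of 3006. The 3xTg peak at chr9:31176078-31177266 had 8.94 and ranked 4479, and its summit lay 15 bases from that of WT. It covered 124 exon bases, although the summit was intronic. Aplp1, the third member of the family, had no peak under the rule. A peak of both lists lay 274 bases past its 3′ end in WT and 303 bases in 3xTg, with fold enrichments of 8.32 and 10.9. Apbb1, an adaptor that binds the cytoplasmic tail of the precursor, had no peak within 845737 bases.

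Of the 4 β- and α-secretase genes, Adam17 alone had a peak, where 15.7% of all genes had a peak of either list. The median length of the group was 68.2 kb, and of all genes over 50 kb 32.5% had such a peak. A count of 1 among 4 genes was thus near the background. ADAM17 is a metalloprotease that sheds the precursor's ectodomain and many cytokines. Its shared peak covered the start site at position 21373632 of chromosome 12. The WT peak (chr12:21373279-21374021) had a fold enrichment of 6.05, tied at rank 2791, and the 3xTg peak (chr12:21373327-21374463) had 9.01 and ranked 4304. The WT summit fell in the first exon, outside the coding part and 32 bases inside the gene, and the 3xTg summit fell 67 bases upstream. No other gene started within 1 kb of it. Bace1, the main β-secretase of brain, lay 204198 bases from the nearest WT peak and 149222 bases from the nearest 3xTg peak. For Bace2, its homologue, these distances were 510001 and 348266 bases, and for the α-secretase gene Adam10 they were 62899 and 529697 bases.

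Psenen alone of the 6 γ-secretase genes had a peak, and that peak lay at the start of another gene. Of all genes 15.7% had a peak of either list, so a count of 1 among 6 genes was near the background. Psenen encodes a small subunit needed for maturation of the complex and is 1763 bases long (chr7:30561865-30563627). The shared peak was found at chr7:30559037-30559976 in WT (fold enrichment 6.05, rank 2791) and at chr7:30559270-30560185 in 3xTg (9.84, rank 3275). It began 1680 bases beyond the Psenen body in 3xTg and counted through the 5 kb rule alone, with the 3xTg summit 3452 bases downstream of the nearest Psenen start site. The summit was 106 bases from the start site of Lin37, which encodes a subunit of a cell cycle repressor complex. Psen2, a catalytic subunit, Ncstn, which encodes nicastrin, and the scaffold genes Aph1a, Aph1b and Aph1c had no peak. Of these Aph1a was nearest to a peak, 7487 bases from a 3xTg peak with a fold enrichment of 8.63. Aph1b and Aph1c are neighbouring copies separated by 19571 bases. Of the windows of 75 bases, the read length, in the Aph1b body 7.85% occur unchanged in Aph1c, so reads from those stretches cannot be assigned to either copy.

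Ide alone of the 8 genes of clearance and lipid transport had a peak, where 15.7% of all genes had a peak of either list. The median length of the group was 74.4 kb, and of all genes over 50 kb 32.5% had such a peak. A count of 1 among 8 genes was thus near or below the background. Insulin-degrading enzyme cuts amyloid peptide as well as insulin. Its shared peak had the highest WT fold enrichment at these genes, 8.70 and rank 860, at chr19:37283146-37283727. In 3xTg it had 13.6 and rank 1354 at chr19:37283024-37284124. Both summits were in intron 19 of 24, 1 base apart and more than 51 kb from the start site (51142 bases in WT). Apoe, which encodes the main lipid carrier of brain, had no peak, but a shared peak at the start of Tomm40 lay 16162 bases away in WT and 15964 bases away in 3xTg, with fold enrichments of 9.46 and 17.8. The protease genes Mme and Ece1, the receptor gene Lrp1, the chaperone gene Clu and the transporter genes Abca1 and Abca7 had no peak. Abca7 lay 10306 bases from a 3xTg peak with a fold enrichment of 12.2 near the start of Tmem259, and Mme was the gene farthest from a 3xTg peak, at 1759118 bases.

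Among the 7 endocytic and cytoskeletal risk genes, 3 had a peak of either list, against 15.7% of all genes and 32.5% of those over 50 kb. The median length of the group was 79.2 kb. Picalm, a clathrin assembly protein, had a shared peak at its promoter, at chr7:90129239-90129960 in WT (fold enrichment 6.05, rank 2791) and at chr7:90128894-90130374 in 3xTg with 8.80 (rank 4580). The summits were 821 and 714 bases upstream of the Picalm start site, and the 3xTg summit was 25 bases from the start of the non-coding gene 2310010J17Rik. A second Picalm peak, in the 3xTg list alone, lay in intron 1 at chr7:90144812-90145927 with 9.15 (rank 4103). Sorl1, a sorting receptor that moves the precursor between endosome and Golgi, had a 3xTg-only peak in intron 12 of 47 at chr9:42054836-42055952, with 9.23 (rank 4027). Its nearest WT peak was 228443 bases away. Cd2ap, an actin adaptor, had the single WT-only peak, at chr17:42879067-42879420, with a fold enrichment of 7.0 and rank 1704. It was intergenic, with its summit 2804 bases upstream of the start site, and no 3xTg peak lay within 400715 bases of the gene. Bin1, which bends membranes, the focal adhesion genes Fermt2 and Cass4, and the kinase gene Ptk2b had no peak. Cass4 was 6183 bases from a 3xTg peak at the start of Rtf2, and Fermt2 was the gene farthest from a WT peak, at 1995854 bases, although a 3xTg peak lay 51243 bases away.

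None of the 8 microglial risk genes had a peak in either list, where 9.30% of all genes had a WT peak and 14.2% a 3xTg peak, so a count of 0 among 8 genes was near the background. They were Trem2, a lipid-sensing receptor, Tyrobp, its signalling adaptor, Cd33, a sialic acid receptor, the signalling enzymes Inpp5d and Plcg2, the transcription factor gene Spi1, Abi3 and the progranulin gene Grn. Spi1 was nearest to a peak, at 11226 bases in 3xTg and 11645 bases in WT, and Plcg2 was farthest, at 1381736 and 1704254 bases. Their median length was 9.35 kb, the shortest of the 7 role groups, and genes under 10 kb had a peak less often than others.

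The peaks with the highest 3xTg fold enrichment were at the other risk genes, of which 3 of 4 had a peak of either list. The 3 were Slc24a4 and Mef2c, both over 100 kb, and Zcwpw1. The median length of the group was 86.8 kb, but Zcwpw1 and Epha1 are shorter than 50 kb. Of all genes 15.7% had such a peak, 32.5% of those over 50 kb and 11.7% of those under it. Slc24a4, an exchanger of sodium, potassium and calcium, had a shared peak in intron 12 of 16. At chr12:102250178-102250671 in WT its fold enrichment was 8.13 and its rank 1045. At chr12:102250086-102251449 in 3xTg these were 19.9 and 495, within the first 9.75% of the list, and the summits were 22 bases apart. A 3xTg-only peak in intron 2, chr12:102201363-102201896, had 9.44 (rank 3814).

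Mef2c, a transcription factor of neurons and microglia, had a shared peak in its last intron, 11 of 11. The WT peak at chr13:83656815-83657441 had a fold enrichment of 7.56 (rank 1285). The 3xTg peak at chr13:83654819-83657976 had 16.6 (rank 800), with its summit 31 bases away. The 3xTg peak was 3158 bases wide against 627 in WT, and covered 266 exon bases. Intron 2 held 2 further 3xTg-only peaks, at chr13:83540379-83541184 with 8.80 (rank 4580) and at chr13:83541902-83543044 with 9.15 (rank 4103). Zcwpw1, a histone reader of meiotic cells, had a shared peak with summits upstream of its start site, near the start of Mepce. The WT peak lay wholly upstream, and the 3xTg peak covered the start site and 382 exon bases. The shared peak had 6.62 (rank 2042) at chr5:137785957-137786965 in WT and 8.98 (rank 4337) at chr5:137785858-137788079 in 3xTg, and both summits lay closer to the start of Mepce, at 111 and 106 bases, than to that of Zcwpw1, at 519 and 736 bases. Epha1, an ephrin receptor gene, had no peak and lay 8214 bases from a 3xTg peak at the start of Zyx.

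**Figure D2:**
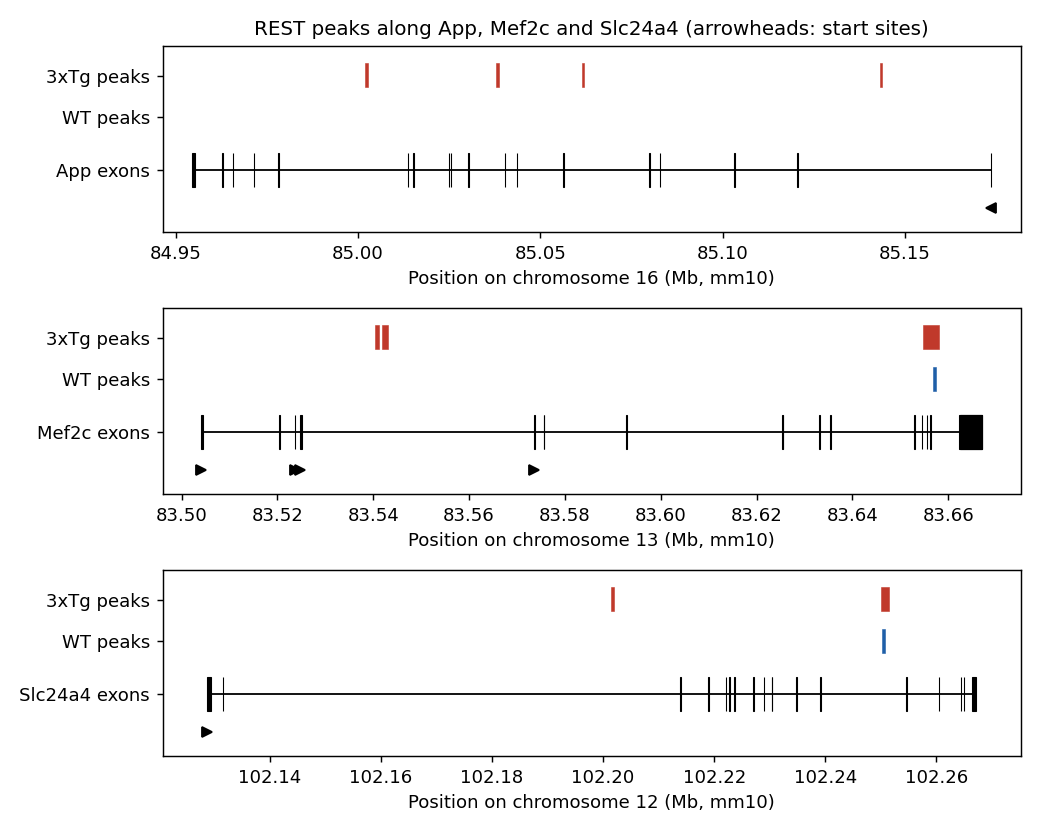
Position of REST peaks along App, Mef2c and Slc24a4 on mm10 (x axis in Mb), with exons as black boxes, start sites as arrowheads, WT peaks in blue and 3xTg peaks in red. The 4 App peaks lie in introns with no WT peak beside them, and the widest peak is the shared 3xTg peak of 3158 bases in Mef2c.

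At the shared peaks fold enrichment was higher in 3xTg at 8 of 8, as it was at 99.5% of the 2489 shared 3xTg peaks in all, each set beside the strongest WT peak it overlaps. The lowest 3xTg value is 8.50, and 7 of the 8 WT values, all but that of Ide, lie under it, so the direction was fixed by the lists at those 7, as at 62.1% of all shared peaks. The ratio of 3xTg to WT had a median of 1.53 at the 8 and of 1.70 at all shared peaks. Slc24a4, at 2.44, and Mef2c, at 2.19, were above that median, with ratios as high at 4.34% and 10.9% of shared peaks. The other 6 ran from 1.36 at Zcwpw1 to 1.63 at Psenen. The ratio compares values scaled within each list, and no replicate value was analysed here to set its error.

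Of the 30 genes without a peak, the distance from gene body to nearest peak ran from 274 bases (Aplp1) to 1995854 bases (Fermt2) in WT, with a median of 149468. In 3xTg it ran from 303 bases (Aplp1) to 1759118 bases (Mme), with a median of 95250 bases. Near the limits of the rule, Cd2ap was counted with a peak 2643 bases upstream of its body, and Aplp1 and Cass4 were not, since their nearest peaks lay past the 3′ end, at 6183 bases for Cass4 in 3xTg.

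The share of genes with a peak rose with gene length, and its part in the counts was not tested. The median length of the 41 genes was 40.1 kb, against 13.5 kb for all RefSeq genes. It was 79.2 kb for the 11 genes with a peak and 23.6 kb for the 30 without. Of the 20 genes longer than 50 kb 9 had a peak of either list, against 32.5% of all genes of that length, and of the 21 shorter genes 2 did, against 11.7%.

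Within length classes the counts were uneven against the background. Over 100 kb, 2 of 10 genes had a WT peak, against 24.9% of all genes of that length, and 4 of 10 had a 3xTg peak, against 39.2%. Those 4 were App, Sorl1, Mef2c and Slc24a4. From 50 to 100 kb, 5 of 10 had a WT peak, against 14.4%, and 4 of 10 had a 3xTg peak, against 22.7%. From 10 to 50 kb, 1 of 14 genes had a peak, Zcwpw1 in both lists, against 8.57% for WT and 12.8% for 3xTg. Under 10 kb, 1 of 7 did, Psenen in both lists, against 5.38% and 8.03%. The class of 50 to 100 kb, with Aplp2, Adam17, Ide, Picalm and Cd2ap, was thus where the shares lay most percentage points above those of all genes.

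**Figure D3:**
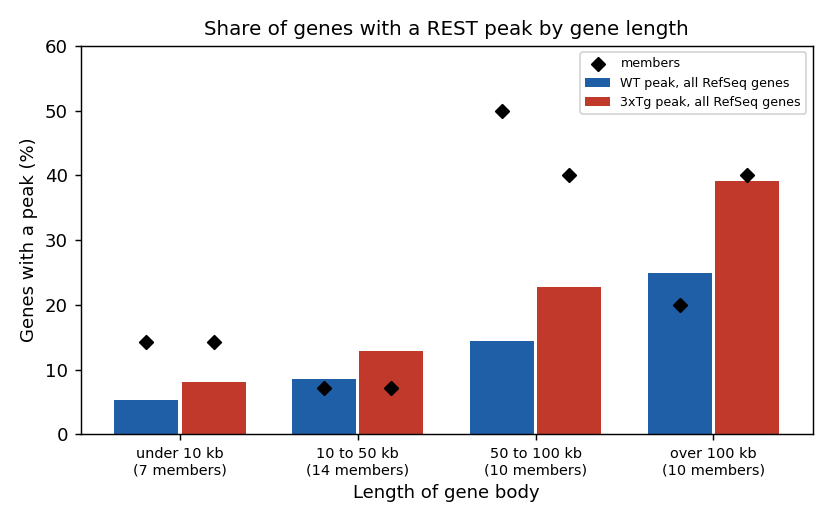
Percentage of genes with a REST peak (y axis) in 4 classes of gene length (x axis), for all RefSeq genes (bars, WT in blue and 3xTg in red) and for the 41 genes (diamonds). The bars rise with length, from 5.38% to 24.9% in WT and from 8.03% to 39.2% in 3xTg, and over 100 kb the diamonds lie close to them.

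At these genes, start sites were found near shared peaks alone. A start site lay within 1 kb of the peak at 4 of the 8 shared 3xTg peaks, those of Adam17, Psenen, Picalm and Zcwpw1, and at 0 of the 9 3xTg-only peaks, all of them intronic. Over the whole list the shares were 36.0% of shared and 31.6% of 3xTg-only peaks. The 9 3xTg-only peaks were not from separate genes, since App held 4 of them and Mef2c 2. When the start site had to be the gene's own, Adam17, Picalm and Zcwpw1 remained, 3 of 41 genes in each list (7.32%), against 5.32% of all genes for WT and 7.84% for 3xTg.

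No peak at these genes held an RE1 site, defined as a match to the 20 bases of the consensus with at most 5 mismatches on either strand. The count was 0 of 9 WT peaks, against 7.09% of all WT peaks, and 0 of 17 3xTg peaks, against 6.09% of all 3xTg peaks. With so few peaks, each count of 0 was near the background. Windows of the same width 10 kb downstream held a site in 1.57% and 2.19%. The best match had 7 mismatches at 9 of the 17 3xTg peaks and 8 at the other 8, where the median over the 3xTg list was 7. The best matches under the 3 strongest 3xTg peaks, the strongest App peak and the Adam17 promoter peak follow, 5′ to 3′, to show how far they are from the element, with capitals at the bases that match it. They lie at chr12:102251232-102251251 (Slc24a4, minus strand), chr13:83655115-83655134 (Mef2c, plus strand), chr19:37283786-37283805 (Ide, minus strand), chr16:85038151-85038170 (App, minus strand) and chr12:21373875-21373894 (Adam17, minus strand). Each has 7 mismatches.
Slc24a4: GaCtCTGTCtcTacTGCTGt
Mef2c: tctGCTGTaCATaGaaCTGA
Ide: tGCGCTGTtCcTGGaaagGA
App: tGCtCTGTCtgaaGTGCTGc
Adam17: GcAcCTGTCtAaGGacCTGc

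These matches lay 789, 2145, 394, 43 and 185 bases from the 3xTg summits in the same order, so the App match alone was within 100 bases of one. A missing match says only that these letters are not in the peak.

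Parts of RE1 were searched separately as CAGCACC and GGACAGC on both strands. CAGCACC was found in 4 of the 17 3xTg peaks (23.5%), against 23.8% of all 3xTg peaks and 21.8% of the windows, a share near the background. GGACAGC was found in 1 (5.88%), against 22.5% and 23.4%. Of the 9 WT peaks none held either, where 18.9% and 17.7% of all WT peaks did. The 4 partial sites in peaks with an intronic summit are shown, to mark where in the peaks they lie. Each is in capitals, with 10 bases on each side. They lie at chr16:85037890-85037916 and chr16:85001899-85001925 (App, both minus strand), chr13:83656299-83656325 (Mef2c, plus strand) and chr12:102201475-102201501 (Slc24a4, minus strand). Of these 4 peaks the Mef2c peak alone covered exon bases (266), and whether its site lies in them was not determined.
App intron 8: tgcaccacagGGACAGCgagaggcctg
App intron 13: gagaggttccCAGCACCcatgttggac
Mef2c intron 11 peak: ctggcagcagCAGCACCtacataacat
Slc24a4 intron 2: tgcctgcagaCAGCACCccagatcctg

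They lay 300, 308, 957 and 100 bases from the summits. The fifth partial site was in the Zcwpw1 peak, 1198 bases from its summit.

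The GC box GGGCGG, a promoter element, divided the peaks as the start sites did. It was found on either strand in the shared peaks of Adam17, Psenen, Picalm and Zcwpw1 in both lists and in no other peak at these genes, 4 of 17 in 3xTg (23.5%) and 4 of 9 in WT (44.4%). Over all peaks it was found in 38% and 38.4%, and in the windows in 14.1% and 9.35%. The median GC content of the 9 3xTg-only peaks was 43.7% and that of the 8 shared 3xTg peaks 47.8%, against 46.5% and 47.1% over the list.

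Of the 41 genes 33 had a promoter of 300 bases in the RefSeq table (GRCm38.p6), 48 promoters in all. GGGCGG was in 60.4% of them and in 35.7% of all 32851 promoters. CAGCACC was in 12.5% and 7.14%, and GGACAGC in 6.25% and 6.56%. An RE1 match with at most 5 mismatches was in 1 of the 48 (2.08%), against 0.953%.

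The sequence of 120 bases around the 3xTg summit is shown for Adam17, the only promoter peak at which no other gene starts, and for Slc24a4, the strongest 3xTg peak, with any of the 3 short motifs in capitals. Both are on the plus strand of GRCm38.p6, chr12:21373639-21373758 and chr12:102250392-102250511. The Adam17 stretch lies just upstream of the start site and holds a GC box on the minus strand, and the Slc24a4 stretch is intronic and holds none of the motifs.
Adam17 summit: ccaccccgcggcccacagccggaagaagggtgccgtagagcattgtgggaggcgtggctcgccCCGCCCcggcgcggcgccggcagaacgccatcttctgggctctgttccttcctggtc
Slc24a4 summit: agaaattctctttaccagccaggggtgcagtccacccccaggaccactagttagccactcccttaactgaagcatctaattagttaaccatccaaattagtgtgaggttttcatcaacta

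Other genes of the pathway were counted in 6 lists of 70 genes, none of them among the 41. A WT peak was found at 17 (24.3%) and a 3xTg peak at 21 (30.0%), where all RefSeq genes gave 9.30% and 14.2%. Their median length was 30.2 kb, against 13.5 kb for all RefSeq genes. Longer genes had a peak more often, and the part of length in these counts was not tested.

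Of 11 adaptors and binding proteins of the precursor 4 had a WT peak (36.4%) and 6 a 3xTg peak (54.5%), against 9.30% and 14.2% of all genes. The highest 3xTg fold enrichments were at Itm2b, a precursor-binding membrane protein, with 19.2 in 3xTg and 8.32 in WT, 300 bases upstream of its start site, and at Apba2, an adaptor of the synapse, with 16.9 and 7.31 in an intron. Of 5 proteins associated with γ-secretase 2 had a peak in both lists, against 7.78% of all genes. Ctnnd2, which encodes δ-catenin, had 29.3 and 16.5, and held an RE1 match with 5 mismatches. Tmed10, a cargo receptor of the early secretory pathway, had 14.0 and 7.0. Ctnnd2 thus had a higher fold enrichment in both lists than any of the 41 genes.

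Of 11 sorting and trafficking genes 0 had a WT peak and 3 a 3xTg peak (27.3%), against 9.30% and 14.2% of all genes. Vps26b, a retromer subunit, had 15.5 and Sorcs1, a sorting receptor related to Sorl1, had 10.4, both in the 3xTg list alone and intronic. Over all genes, 6.34% had a 3xTg-only peak and no WT peak. Of 12 further proteases Adam9 alone had a peak, shared and 204 bases upstream of its start site, with 8.66 and 6.12. A count of 1 among 12 genes (8.33%) was near or below the background. Of 8 lipoprotein and amyloid peptide receptors 2 had a WT peak (25%) and 1 a 3xTg peak (12.5%), against 9.30% and 14.2% of all genes. The gene with 3xTg peaks was Lrp1b, a receptor of the LDL family, with 4 of them and 1 WT peak. Its highest 3xTg peak (12.6) had no WT counterpart.

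Of 23 further risk loci 8 had a WT peak and 8 a 3xTg peak (34.8% each), against 9.30% and 14.2% of all genes. Both lists had a peak at 7 of the loci, against 7.78% of all genes. Celf1, an RNA-binding protein, had the highest value of the 6 lists, 43.8 in 3xTg at rank 48 and 25.7 in WT at rank 61, in an intron. Tomm40, part of the mitochondrial import channel and neighbour of Apoe, was next among these loci with 17.8 and 9.46, its summit 581 bases upstream of the start site.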

How the data were processed

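REST ChIP-seq reads of 75 bases from 8 libraries and 2 inputs were aligned by the authors to mm10, with STAR per the study's methods, while the labels' processing notes also name BWA. The authors called peaks with MACS, kept those with fold enrichment over 5 and q under 0.01, and removed blacklisted regions. In each deposited list a peak has a score, 10 times its −log10 q. Its fold enrichment, deposited as a ratio, is over the local background. The −log10 of the p-value and of the q-value were also deposited by the authors, and the p-value was not used here. Peaks on chromosome Y (4 WT, 9 3xTg) were left out, since all mice were female.

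Genes were those of RefSeq on GRCm38.p6, the assembly of mm10, with curated transcripts. No peak ran past a chromosome end. Ranks follow fold enrichment within a list, ties sharing the best rank. The RE1 consensus was the known REST motif of the HOMER collection. Introns were numbered on the transcript with the most exons. The named genes are all 41 listed genes, those touched by the same peaks, and in each pathway list the 2 with the highest 3xTg fold enrichment. Genes next to the nearest peak of a gene without one were named after their values were seen. The 41 genes and the lists were chosen with earlier results of these data known. No test was made. Computations used Python 3.11.15, numpy 2.4.6, pandas 2.3.3, pysam 0.24.0, samtools 1.23.1 and matplotlib 3.10.9, and were checked on simulated data.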

Additional observations from a re-analysis of the deposited data

How the results depend on the processing

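Of 63 recomputed counts, 31 stayed within 1.5 times the reported count, among them all of those with genes assigned by the summit base and with predicted transcripts kept, and the 0 peaks with an RE1 site in each list with at most 6 mismatches, against 14.8% of all WT and 17.5% of all 3xTg peaks. Some of the 31 could hardly move or not at all. A −log10 q over 5 removed no peak, and at most 4 mismatches could not raise a count of 0 RE1 sites. The 200 bases around the summit lie largely within the peak already searched. The other 32 did not stay within that range.
With fold enrichment held above 10, 0 genes had a WT peak, 4 a 3xTg peak and 0 both. Of all genes 1.91%, 9.41% and 1.89% did. At these genes 0 peaks were shared, 4 were 3xTg-only and 0 WT-only. In the lists so held 18.5% of 3xTg peaks were shared and 81.5% 3xTg-only, and 0.669% of WT peaks were WT-only.
With start sites within 5 kb alone, 5 genes had a WT peak, 4 a 3xTg peak (9.76%) and 4 both. Of all genes 6.72%, 9.87% and 5.24% did. At these genes 4 peaks were shared and 0 3xTg-only, against 49% and 51% of all 3xTg peaks. With start sites within 1 kb alone, the genes were 3, 3 and 3, against 5.32%, 7.84% and 3.97%. Of the peaks 3 were shared, 0 3xTg-only and 0 WT-only, against 49% and 51% of all 3xTg peaks and 16.7% of all WT peaks. With the gene body alone, 5 genes had a WT peak and 5 both, against 7.82% and 6.55%, with 0 WT-only peaks, against 16.7% of all WT peaks.
With the 3xTg list reduced to its 3006 best-scoring peaks, as many as in WT, 3 genes had a 3xTg peak and 3 both. Of all genes 9.09% and 6.41% did. At these genes 3 peaks were shared, 0 3xTg-only and 6 of the 9 WT peaks WT-only. In the lists so reduced 68.1% of 3xTg peaks were shared and 31.9% 3xTg-only, and 31.4% of WT peaks were WT-only. The 4 App peaks and the Sorl1 peak were not among those 3006 peaks, chosen by score. With shared peaks required to overlap by 50% of each, 4 were shared and 5 WT-only, against 35.1% of all 3xTg peaks shared and 40.8% of all WT peaks WT-only.
With the WT list held to the lowest 3xTg fold enrichment, 1 gene had a WT peak (Ide) and 1 both, against 3.01% and 2.99%. This setting was chosen after seeing the data. At these genes 1 peak was shared, 16 were 3xTg-only and 0 WT-only. In the lists so held 18.6% of 3xTg peaks were shared and 81.4% 3xTg-only, and 0.526% of WT peaks were WT-only. Apart from the overlap rule, each of these settings leaves fewer peaks or less sequence per gene.
No paired analysis was possible because each genotype's 4 replicates were pooled in 1 peak list, and with these lists no replicate was left out in turn. The separate replicate libraries and the depth per library were not analysed here.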
